A study of Mus musculus with 6 samples.

Results

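The RGK proteins are a small family of Ras-related GTPases (Rad, encoded by *Rrad*, and Gem, Rem1 and Rem2), and the voltage-gated calcium channel of skeletal muscle, CaV1.1, is one of the channels that they can inhibit. The 8 genes described here are the 4 RGK genes and the 4 genes of the adult muscle channel, *Cacna1s*, *Cacnb1*, *Cacng1* and *Cacna2d1*, found by their symbols among the 41709 genes of the expression table. *Rrad* was chosen from this same comparison because it was among the largest decreases, and the others were added as its family and its target. The differences of the 8 genes between the groups are therefore given as a description, with no p-value, and their intervals and counts support no claim about them.

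The data are RNA-seq values of 6 tibialis anterior (TA) muscles of male C57BL/6 J mice. Lrpprc is an RNA-binding protein known mainly for stabilising mitochondrial mRNAs. In 3 muscles a plasmid for the wild-type protein (LrpprcWT) was electroporated, and in the contralateral muscles a plasmid for the P27A variant (LrpprcP27A), in which the proline at position 27, a hydroxylation site, is replaced by alanine. Muscles were collected 14 days later. Both groups thus share the electroporation, a CMV-driven plasmid and the mouse's own *Lrpprc* gene, and no muscle without plasmid is part of this comparison. The study used mice of 4 and 27 months, and the age of the sequenced mice was not given in the sources used here. The *Lrpprc* level, which does not separate plasmid from endogenous transcripts, was 35.1, 37.0 and 75.2 TPM (a transcript level scaled for the length of the transcript and the total of the library) in LrpprcWT replicates 1, 2 and 3, and 26.9, 29.7 and 26.0 TPM in LrpprcP27A. LrpprcWT replicate 3 stood apart by its high *Lrpprc* level, and the groups did not overlap (log2 difference -0.72, adjusted p = 0.0652 from limma).

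In muscle, depolarisation of the surface membrane moves the voltage sensor of CaV1.1, which opens the ryanodine receptor of the sarcoplasmic reticulum and so releases the calcium that drives contraction. The channel is built from a pore subunit with the voltage sensor (*Cacna1s*), an intracellular beta subunit that carries the pore subunit to the membrane (*Cacnb1*), a gamma subunit that dampens the calcium current (*Cacng1*) and an extracellular alpha-2-delta subunit (*Cacna2d1*). RGK proteins bind the beta subunit and lower the calcium current, both by taking channels off the surface and by holding those that stay in a closed state. In the heart, phosphorylation of Rad by protein kinase A releases this brake, and in skeletal muscle Rad is known to be raised after injury and denervation.

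The 4 RGK genes lie on different chromosomes of the mouse genome (GRCm39), *Rrad* at chr8:105354695-105357990 on the minus strand, *Gem* at chr4:11704343-11714993, *Rem1* at chr2:152468819-152487694 and *Rem2* at chr14:54713557-54717892, all on the plus strand. Unlike Ras, RGK proteins lack the lipid anchor motif at their end and carry in its place a short tail with a conserved cysteine. The last 33 coding bases of each gene, within its last coding exon and without the stop codon, show how closely the family is related there. The capitals mark the cysteine codon, which is the codon 7 from the end in each gene.
Rrad, chr8:105355086-105355118, minus strand: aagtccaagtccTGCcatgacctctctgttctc
Gem, chr4:11713718-11713750, plus strand: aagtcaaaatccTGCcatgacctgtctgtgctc
Rem1, chr2:152476602-152476634, plus strand: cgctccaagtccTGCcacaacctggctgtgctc
Rem2, chr14:54717167-54717199, plus strand: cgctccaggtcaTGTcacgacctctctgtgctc

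Over their whole length the coding sequences shared only short runs. *Rrad* and *Gem* had 69.0% identical bases over 858 aligned positions of their coding sequences (921 and 885 bases), and the longest run that they shared had 20 bases, against reads of 100 bp. This run is shown because it bears on whether the 2 genes with the largest differences could share reads.
Rrad and Gem, longest shared run: cgcctgcgcagggacagcaa
Over the 6 pairs of RGK genes, the longest shared coding run had between 10 and 23 bases. Of the 12 annotated genes that overlap any of the 8 members, 8 were in the table, and none of these reached 1 TPM in any library (highest 0.994 TPM, for *Gm11629* over *Cacnb1*). The library kit did not mark strand, so reads from such partners cannot be told apart from those of the members.

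Most tested genes were lower with LrpprcP27A on the deposited scale, and the values of the members are to be read against this shift. Of 11611 genes with a mean of at least 1 TPM, 23.3% were called lower (adjusted p under 0.05 from limma on log2(TPM + 1), with Benjamini-Hochberg adjustment over all tested genes) and 1.34% were called higher, and the median log2 difference was -0.32. With median-of-ratios scaling, which moved this median to -0.0047, 6.03% were called lower and 5.25% higher. When the replicate numbers entered as a block, 48.4% were called lower and 2.69% higher. Genes encoded by the mitochondrial genome and ribosomal RNA genes held between 37.4% and 46.1% of the TPM in the LrpprcWT libraries and between 48.0% and 50.6% in the LrpprcP27A libraries. With the values rescaled without these genes, the median log2 difference was -0.18, and 662 of 11586 genes were called lower. The part of this difference between the libraries in the lower values of other genes was not tested beyond that rescaling.

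Among the RGK genes, *Rrad* differed most between the groups, followed by *Gem*, and both were lower with LrpprcP27A in every pair of muscles. *Rrad* stood at 34.8, 30.8 and 34.7 TPM in LrpprcWT replicates 1, 2 and 3 and at 5.09, 2.42 and 2.35 TPM in LrpprcP27A replicates 1, 2 and 3. The groups did not overlap, and the highest LrpprcP27A library, replicate 1, was still far under the lowest LrpprcWT library. The means were 33.4 ± 2.27 TPM (SD, n = 3) and 3.29 ± 1.56 TPM (SD, n = 3), a level 10.2-fold higher with LrpprcWT. On the log2(TPM + 1) scale the difference was -3.06 (SE 0.22, 95% interval -3.57 to -2.55), the 5th lowest value of the 11611 tested genes. Within the pairs of contralateral muscles it was -2.55, -3.21 and -3.41.

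*Gem*, whose protein inhibits calcium channels and also acts on the cytoskeleton, stood at 19.1, 9.33 and 19.4 TPM in LrpprcWT replicates 1, 2 and 3 and at 5.56, 4.05 and 2.32 TPM in LrpprcP27A. The LrpprcWT libraries were spread more widely than for *Rrad*, with replicate 2 the lowest of its group, but the groups did not overlap. The log2 difference was -1.76 (SE 0.31, 95% interval -2.47 to -1.04), with -1.61, -1.03 and -2.62 within the pairs.

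*Rem1*, known best from the heart, was expressed at a low level that differed little between the groups. It stood at 2.42, 2.00 and 2.20 TPM in LrpprcWT and at 1.63, 1.56 and 1.93 TPM in LrpprcP27A. The groups did not overlap, by a narrow margin, and the log2 difference was -0.25 (SE 0.14, 95% interval -0.56 to 0.067). Relative to the median of all tested genes the difference was 0.074, close to that of the median gene. *Rem2*, mainly a gene of neurons, was listed at 0 in 5 libraries and at 0.022 TPM in LrpprcWT replicate 2, and it was not tested.

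**Figure D1:**
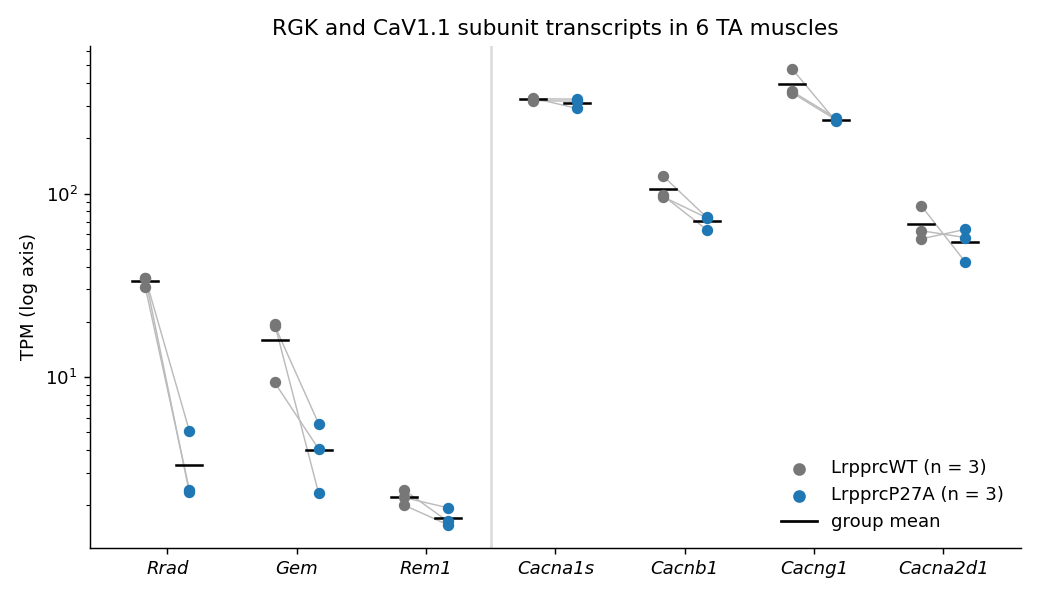
Levels of 7 genes in TPM (vertical axis, log scale) in the 6 TA muscles, with LrpprcWT in grey and LrpprcP27A in blue, thin lines joining muscles with the same replicate number and black bars for the group means. *Rrad* and *Gem* separate widely, *Cacnb1* and *Cacng1* separate by less, and *Cacna1s* and *Cacna2d1* overlap between the groups. *Rem2*, at or near 0, is not drawn.

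Because *Rrad* differed more than the rest of its family, the makeup of the RGK transcripts differed too. Summed over the 4 genes, the RGK level was 56.2, 42.1 and 56.3 TPM in LrpprcWT and 12.3, 8.03 and 6.61 TPM in LrpprcP27A, with means of 51.6 ± 8.17 and 8.97 ± 2.95 TPM (SD, n = 3 each). *Rrad* held 65.5% ± 6.56 (SD, n = 3) of this sum with LrpprcWT and 35.8% ± 5.64 (SD, n = 3) with LrpprcP27A. *Gem* held 30.2% ± 6.97 and 43.6% ± 7.77 (SD, n = 3 each), and *Rem1* 4.32% ± 0.42 and 20.7% ± 8.07 (SD, n = 3 each). *Rrad* was thus the most abundant RGK transcript in each LrpprcWT library, and in the LrpprcP27A libraries the ranges of *Gem* and *Rrad* overlapped, with *Gem* higher than *Rrad* in replicates 1 and 2 and nearly level with it in replicate 3. The TPM of *Gem* as a percent of *Rrad* in the same library was 54.9, 30.3 and 56.1 in LrpprcWT and 109, 167 and 98.6 in LrpprcP27A.

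The pore subunit of the channel differed little between the groups. *Cacna1s* (chr1:135980259-136047560, plus strand) stood at 331, 321 and 329 TPM in LrpprcWT replicates 1, 2 and 3 and at 291, 319 and 327 TPM in LrpprcP27A. The groups overlapped, and only LrpprcP27A replicate 1 lay apart, below the others. The log2 difference was -0.068 (SE 0.094, 95% interval -0.28 to 0.15), which was 0.25 above the median of all tested genes, and with median-of-ratios scaling it took the other sign, at 0.31. *Cacna2d1* (chr5:16139372-16579509, plus strand) also overlapped between the groups, with 85.7, 56.6 and 62.7 TPM in LrpprcWT and 42.4, 63.8 and 57.6 TPM in LrpprcP27A. Its log2 difference of -0.32 (SE 0.19, 95% interval -0.76 to 0.12) lay within 0.001 of the median of all tested genes, and its pairs went in both directions (-1.0, 0.17 and -0.12).

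The beta and gamma subunits were lower with LrpprcP27A, by less than *Rrad* and *Gem*. *Cacnb1* (chr11:97892204-97913860, minus strand), the subunit that RGK proteins bind, stood at 125, 96.3 and 97.9 TPM in LrpprcWT and at 74.3, 73.8 and 63.6 TPM in LrpprcP27A. The groups did not overlap, and the log2 difference was -0.58 (SE 0.13, 95% interval -0.88 to -0.28). *Cacng1* (chr11:107591493-107607408, minus strand) stood at 361, 355 and 480 TPM in LrpprcWT and at 258, 253 and 248 TPM in LrpprcP27A. LrpprcWT replicate 3 was the highest, the LrpprcP27A libraries lay close together, and the groups did not overlap (log2 difference -0.64, SE 0.13, 95% interval -0.93 to -0.35). Relative to the median of all tested genes, the differences of *Cacnb1* and *Cacng1* were -0.26 and -0.32, and with median-of-ratios scaling -0.21 and -0.265.

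**Figure D2:**
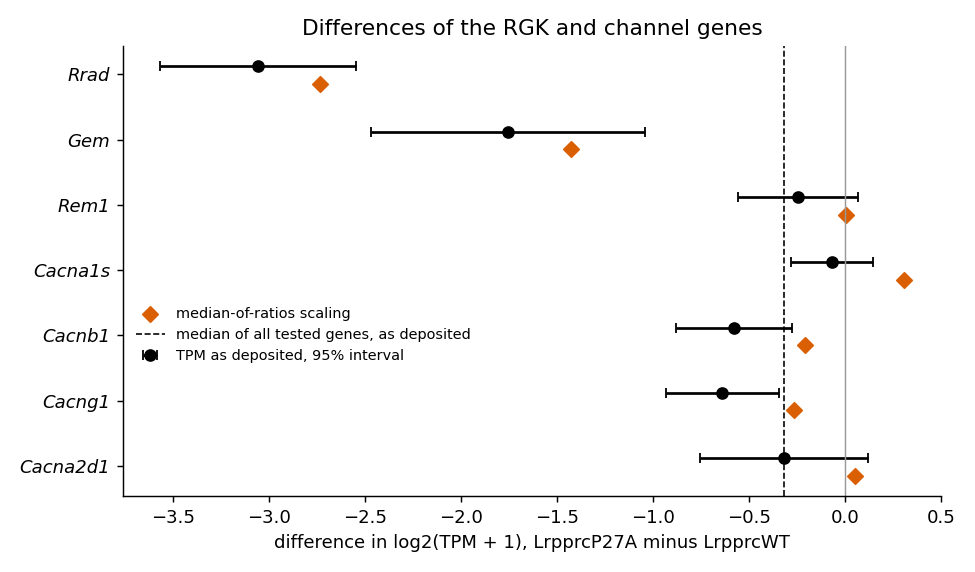
Difference in log2(TPM + 1) between LrpprcP27A and LrpprcWT (horizontal axis) for 7 genes, as deposited with 95% intervals from limma (black circles) and with median-of-ratios scaling (orange diamonds), and the median of all tested genes on the deposited scale (dashed line, -0.32). *Rrad* and *Gem* lie far to the left of the dashed line under both scalings, whereas the channel genes and *Rem1* lie nearer to it. The line is the reference for the circles only, as the median with median-of-ratios scaling was -0.0047.

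Read as counts, 4 of the 7 tested members passed the threshold and were lower (23.3% of all tested genes), and 2 did so with median-of-ratios scaling, *Rrad* and *Gem* (6.03% of all tested genes). The groups did not overlap, with all LrpprcP27A libraries lower, for 5 of the 7, as for 47.6% of all tested genes, and all LrpprcP27A libraries were higher for none of the 7, against 3.51%. As the members were chosen from this comparison, these counts are given beside the background without being read further.

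In the order of the levels, *Cacng1* was highest with LrpprcWT, followed by *Cacna1s*, *Cacnb1*, *Cacna2d1*, *Rrad*, *Gem*, *Rem1* and *Rem2*, and the ranges of neighbours did not overlap. With LrpprcP27A, *Cacna1s* came before *Cacng1* and *Gem* before *Rrad*. There the ranges of *Cacnb1* and *Cacna2d1* overlapped (63.6 to 74.3 and 42.4 to 63.8 TPM), but *Cacnb1* was the higher in each library. The ranges of *Gem* and *Rrad* overlapped too (2.32 to 5.56 and 2.35 to 5.09 TPM). Their order changed between libraries, so that *Gem* and *Rrad* cannot be put in order.

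Ratios to the pore subunit within a library do not depend on how the libraries were scaled to each other. The *Rrad* level was 10.5%, 9.58% and 10.6% of *Cacna1s* in LrpprcWT and 1.75%, 0.76% and 0.719% in LrpprcP27A, a mean ratio 9.49-fold higher with LrpprcWT. Leaving out LrpprcP27A replicate 1, in which *Rrad* was highest of its group, gave 13.8-fold. *Gem* was 4.86% ± 1.69 of *Cacna1s* with LrpprcWT and 1.29% ± 0.6 with LrpprcP27A (SD, n = 3 each), and the groups did not overlap.

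The subunits of the channel did not keep one proportion either. *Cacnb1* was 37.8%, 30.0% and 29.8% of *Cacna1s* in LrpprcWT and 25.5%, 23.1% and 19.4% in LrpprcP27A. *Cacng1* was 109%, 110% and 146% of *Cacna1s* in LrpprcWT and 88.7%, 79.2% and 75.7% in LrpprcP27A. Both ratios were lower in all LrpprcP27A libraries, whereas that of *Cacna2d1* overlapped (20.8% ± 4.4 and 17.4% ± 2.73, SD, n = 3 each). The sum of *Rrad*, *Gem*, *Rem1* and *Rem2* per *Cacnb1*, the RGK transcripts set against those of their binding subunit, was 48.7% ± 7.65 with LrpprcWT and 12.6% ± 3.42 with LrpprcP27A (SD, n = 3 each). For comparison, *Stac3*, the adaptor that CaV1.1 needs for its coupling to the ryanodine receptor, stood at 40.7% ± 1.00 and 38.2% ± 3.25 of *Cacna1s* (SD, n = 3 each, overlapping). *Ryr1*, the ryanodine receptor itself, stood at 105% ± 7.91 and 130% ± 4.7 (SD, n = 3 each), higher in all LrpprcP27A libraries.

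**Figure D3:**
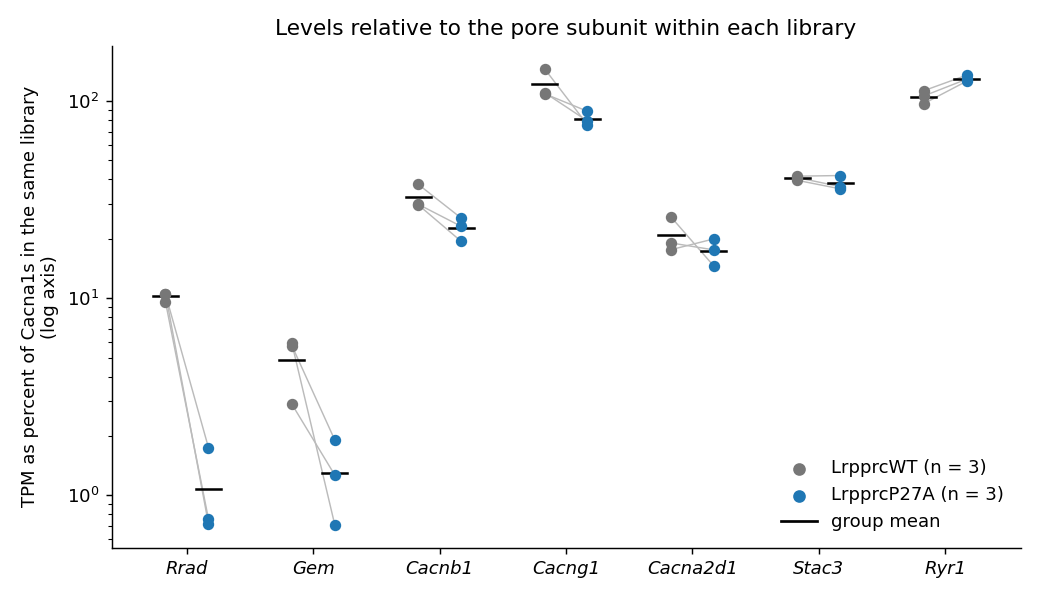
TPM of 7 genes as a percent of *Cacna1s* in the same library (vertical axis, log scale), with LrpprcWT in grey, LrpprcP27A in blue, thin lines between muscles with the same replicate number and black bars for group means. The ratios of *Rrad*, *Gem*, *Cacnb1* and *Cacng1* are lower in all LrpprcP27A libraries, those of *Cacna2d1* and *Stac3* overlap, and that of *Ryr1* is higher.

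Whole muscle holds other cells than fibres, and in such bulk samples fewer cells of a type cannot be told apart from less RNA per cell. The summed level of 8 myofibre markers was between 102000 and 114200 TPM in LrpprcWT and between 98030 and 110500 TPM in LrpprcP27A, and 1 of the 8 was called lower, *Myh2*, a fast myosin heavy chain (317 ± 57.3 and 147 ± 59.4 TPM, SD, n = 3 each, log2 difference -1.16, adjusted p = 0.0236 from limma). Markers of other cells were lower with LrpprcP27A alongside *Rrad* and *Gem*. The 7 macrophage markers summed to between 306 and 619 TPM in LrpprcWT and between 102 and 209 TPM in LrpprcP27A, and all 7 were called lower. The 6 fibro-adipogenic markers summed to between 816 and 1357 TPM in LrpprcWT and between 215 and 468 TPM in LrpprcP27A, and 5 were called lower. Satellite cell markers (3 of 4 tested called lower) summed to between 8.83 and 14.8 and between 4.5 and 6.49 TPM. For the other markers the sums overlapped between the groups. They went from 164 to 298 TPM in LrpprcWT and from 122 to 168 TPM in LrpprcP27A for 6 endothelial markers (2 called lower), from 293 to 413 and from 227 to 330 TPM for 6 smooth muscle markers (2 called lower), and from 51.8 to 64.7 and from 28.4 to 56.2 TPM for 5 Schwann cell markers (1 called lower). For 5 lymphocyte and neutrophil markers they went from 30.8 to 51.1 and from 23.2 to 35.0 TPM (1 called lower), and for 5 adipocyte markers from 1.86 to 4.86 and from 2.00 to 6.32 TPM (0 called), with *Lep* at 0 in at least 1 library. All these calls are on the deposited scale, on which 23.3% of all tested genes were called lower. With median-of-ratios scaling (6.03% of all tested genes lower), 3 of 7 macrophage, 3 of 6 fibro-adipogenic and 2 of 4 satellite cell markers were called lower, and 0 of the tested markers on each of the other lists. The part of these cells in the levels of the members was not tested.

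The other subunits of voltage-gated calcium channels were taken as a list beside the members. Like the members, all gene lists below were chosen with earlier results of these samples known, so their directions and p-values are no independent evidence. Of 9 other pore subunits, 2 passed the filter on low values, the T-type genes *Cacna1g* and *Cacna1h*, both at low levels, and neither was called (median log2 difference -0.33). *Cacna1g* was called lower with the replicate block (log2 difference -0.49, adjusted p = 0.0636 without and 0.0114 with the block, both from limma) and when LrpprcWT replicate 2 was left out. *Cacna1h*, the higher of the pair in the LrpprcP27A libraries and the lower in the LrpprcWT libraries, stood at -0.17 (adjusted p = 0.325 from limma), and its sign turned with median-of-ratios scaling (0.023).

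Among the other auxiliary subunits, 4 of 13 were tested, and here 1 fell and 2 rose (23.3% and 1.34% of all tested genes). *Cacnb3*, a beta subunit outside adult muscle fibres, stood at 4.62, 3.49 and 3.81 TPM in LrpprcWT and at 1.55, 1.12 and 1.15 TPM in LrpprcP27A (log2 difference -1.13, SE 0.15, adjusted p = 0.0111 from limma). *Cacna2d4*, an alpha-2-delta subunit known from photoreceptors, stood at 2.10, 2.08 and 1.43 TPM in LrpprcWT and at 5.42, 4.63 and 4.99 TPM in LrpprcP27A (log2 difference 1.07, SE 0.15, adjusted p = 0.0116 from limma). *Cacng7*, a gamma-like subunit studied mostly as a partner of AMPA receptors, rose from 8.39 ± 1.66 to 15.7 ± 4.5 TPM (SD, n = 3 each, log2 difference 0.81, adjusted p = 0.0362 from limma). The groups did not overlap for any of these genes.

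*Cacng6*, the other gamma subunit that is abundant in muscle, was the tested one not called. It stood at 85.2, 90.2 and 76.8 TPM in LrpprcWT and at 91.0, 119 and 104 TPM in LrpprcP27A, higher in all LrpprcP27A libraries (log2 difference 0.31, adjusted p = 0.0928 from limma, 0.0427 with the replicate block). As *Cacng1* was lower, *Cacng6* reached 35.2%, 47.2% and 41.7% of *Cacng1* in LrpprcP27A, against 23.6%, 25.4% and 16.0% in LrpprcWT.

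At the triad, where the channel faces the ryanodine receptor, 4 of 16 tested genes fell and none rose. These shares were close to those of all tested genes (23.3% and 1.34%), and the median difference of -0.16 was above that of all tested genes. *Sypl2*, which encodes the triad membrane protein mitsugumin-29, fell from 364 to 197 TPM on average (408, 299 and 384 TPM against 214, 202 and 175 TPM, log2 difference -0.87, SE 0.14, adjusted p = 0.0129 from limma). *Cav3*, the muscle caveolin, stood at a log2 difference of -0.69 (adjusted p = 0.0231 from limma), and *Fkbp1a*, which binds and steadies the ryanodine receptor, at -0.5 (adjusted p = 0.0394 from limma). With median-of-ratios scaling only 1 of the 16, *Sypl2*, was called lower and 1, *Ryr1*, higher (adjusted p = 0.0363 and 0.0345 from limma). Of all tested genes, 6.03% were called lower and 5.25% higher with that scaling.

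Genes whose proteins are reported to bind or act on RGK proteins also fell in part. Of 19 tested, 9 fell and none rose (median -0.48), where 23.3% of all tested genes fell, and 13 fell with the replicate block, where 48.4% of all tested genes did. *Ezr*, which encodes the membrane-cytoskeleton linker ezrin, stood at 7.25, 4.57 and 8.76 TPM in LrpprcWT and at 2.49, 1.38 and 2.27 TPM in LrpprcP27A (log2 difference -1.35, SE 0.23, adjusted p = 0.0154 from limma). *Ywhaz* and *Ywhaq*, adaptors that bind phosphorylated proteins, stood at -0.92 and -0.88 (adjusted p = 0.0267 and 0.0413 from limma). With median-of-ratios scaling the split became 2 lower and 3 higher (6.03% and 5.25% of all tested genes). *Ezr* kept its call there, and *Ywhaz* and *Ywhaq* did not (adjusted p = 0.0263, 0.0602 and 0.111 from limma).

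Of the beta-adrenergic and protein kinase A genes, which act on the channel through Rad in the heart, 3 of 8 tested fell and 1 rose (median -0.42), and 5 fell and 1 rose with the replicate block. Of all tested genes, 23.3% fell and 1.34% rose (median -0.32), and 48.4% fell and 2.69% rose with the block. *Prkaca*, the catalytic subunit, stood at -0.53 (158, 115 and 147 TPM against 102, 93.3 and 92.5 TPM, adjusted p = 0.0286 from limma). The type I regulatory subunit gene *Prkar1a* stood at -0.72 (adjusted p = 0.0249 from limma) and *Akap7*, an anchor of the kinase at the channel, at -0.68 (adjusted p = 0.0262 from limma). The type II regulatory subunit gene *Prkar2a* rose, with 58.0, 57.5 and 53.3 TPM in LrpprcWT and 68.3, 74.8 and 77.7 TPM in LrpprcP27A (log2 difference 0.38, adjusted p = 0.0351 from limma). With median-of-ratios scaling, 1 fell, *Akap7*, and 1 rose, *Prkar2a* (6.03% and 5.25% of all tested genes). *Prkaca* and *Prkar1a* were not called with it (adjusted p = 0.228 and 0.0581 from limma).

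The other Ras-like GTPases were taken as the wider family of the RGK genes. Of 23 tested, 8 fell and 1 rose (median -0.46), with 15 and 1 under the replicate block and 2 and 2 with median-of-ratios scaling. The shares of all tested genes were 23.3% and 1.34%, 48.4% and 2.69%, and 6.03% and 5.25%, in the same order. The lowest values past the threshold were -0.97 for *Rras* (adjusted p = 0.0173 from limma), -0.85 for *Rap1b* (0.0365) and -0.84 for *Rap2a* (0.0249). With median-of-ratios scaling *Rap1b* was not called, and *Rras* and *Rap2a* were (adjusted p = 0.102, 0.0331 and 0.0431 from limma). *Rasd2* (Rhes), a GTPase of the dexamethasone-induced Ras branch, rose, with 1.48, 4.04 and 1.17 TPM in LrpprcWT and 8.72, 11.6 and 13.9 TPM in LrpprcP27A (log2 difference 2.02, SE 0.31, adjusted p = 0.0123 from limma). The groups did not overlap, and LrpprcWT replicate 2 was the highest of its group.

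Genes of the electrical excitability of the surface membrane, upstream of the channel, fell at a share near that of all tested genes. Of 15 tested, 4 fell and 1 rose (median -0.31). Under the replicate block 8 fell and 2 rose, and with median-of-ratios scaling 1 and 2. Of all tested genes, 23.3% fell and 1.34% rose as deposited, 48.4% and 2.69% with the block, and 6.03% and 5.25% with that scaling. *Kcnn3*, a calcium-activated potassium channel, fell (5.23, 3.18 and 6.1 TPM against 2.11, 1.55 and 1.67 TPM, log2 difference -1.04, adjusted p = 0.0187 from limma). *Atp1b2*, a beta subunit of the sodium pump, stood at -0.64 (adjusted p = 0.0116 from limma). With median-of-ratios scaling *Atp1b2* was not called (adjusted p = 0.143 from limma). *Scn4a*, the sodium channel that carries the muscle action potential, rose from 103 to 138 TPM on average (log2 difference 0.42, adjusted p = 0.0336 from limma).

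Genes known to rise after denervation or in regenerating fibres, as *Rrad* does, mostly fell in these muscles. Of 14 tested, 11 fell and none rose (median -1.57), and the same counts were found with median-of-ratios scaling (median -1.35). Of all tested genes, 23.3% fell as deposited and 6.03% with that scaling. *Myh8* and *Myh3*, the perinatal and embryonic myosin heavy chains, stood at -2.9 and -2.62 (adjusted p = 0.0116 and 0.0205 from limma). *Myog*, the myogenic regulator myogenin, stood at 34.4, 22.0 and 53.1 TPM in LrpprcWT and at 9.2, 3.51 and 6.16 TPM in LrpprcP27A (log2 difference -2.36, SE 0.35, adjusted p = 0.0116 from limma). This list, like the others, was chosen with earlier results of these samples known, so that none of them is independent evidence of a direction.

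Over the 8 lists together, 40 of 101 tested genes fell and 5 rose (median -0.45), with 62 and 7 under the replicate block and 19 and 11 with median-of-ratios scaling. The shares of all tested genes were 23.3% and 1.34%, 48.4% and 2.69%, and 6.03% and 5.25%, in the same order. The denervation and regeneration list gave 11 of the 40 lower calls as deposited and 11 of the 19 with median-of-ratios scaling. Of the called genes of all lists, 88.9% were lower on the deposited scale and 63.3% with that scaling. The counts over the 8 lists depended on single libraries. Without LrpprcWT replicate 3, the number that fell was 1, *Chrna1*, a subunit of the acetylcholine receptor, and none rose. The number that fell was 14 without LrpprcWT replicate 1, 62 without LrpprcWT replicate 2, 18 without LrpprcP27A replicate 2 and 15 without LrpprcP27A replicate 3, and the number that rose was 2, 9, 2 and 2. Without LrpprcP27A replicate 1, 3 rose. The log2 difference of *Rrad* ranged from -3.34 to -2.91 and that of *Gem* from -2.08 to -1.49 when each library was left out.

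**Figure D4:**
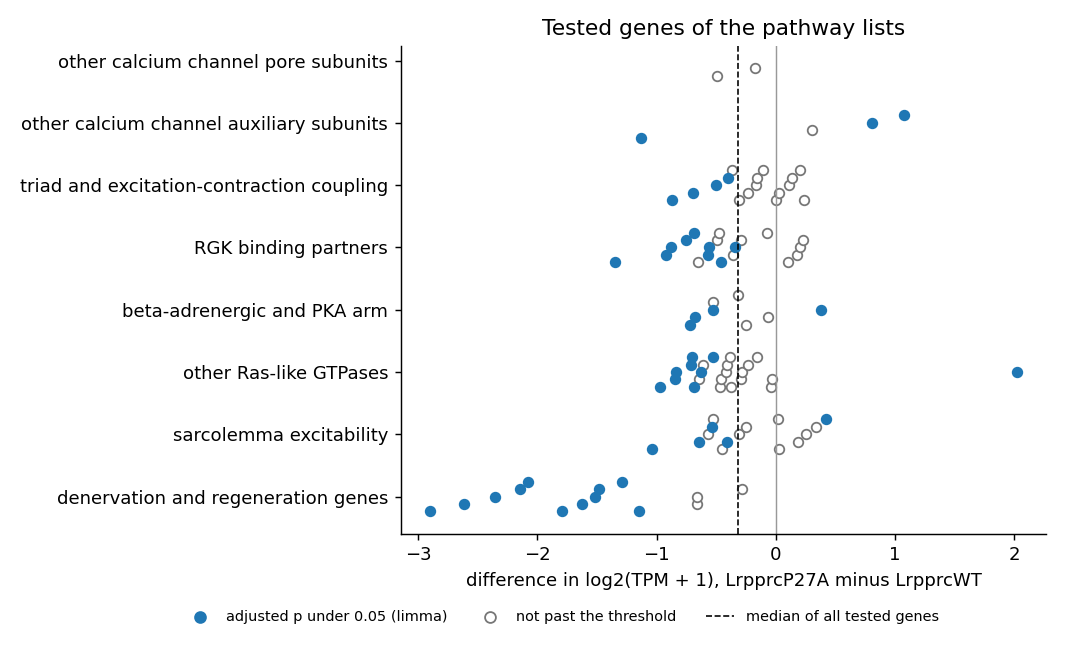
Difference in log2(TPM + 1) between LrpprcP27A and LrpprcWT (horizontal axis) for the 101 tested genes of 8 lists (rows, spread vertically for legibility), filled where adjusted p was under 0.05 in limma, with the median of all tested genes as a dashed line at -0.32. Most lists scatter around the dashed line, whereas the denervation and regeneration genes lie to its left.

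The genes whose levels followed *Rrad* most closely over the 6 libraries, by Pearson's r of log2(TPM + 1) among 2725 genes with a span of at least 1, were *Socs3* (0.994), *Gatm* (0.993), *Srrm4os* (0.992), *En1* (0.991) and *Sln* (0.990). All 5 separate the groups as *Rrad* does, and these 6 points share the group difference, so r is a description only. With the group means taken out, r was 0.888, 0.845, 0.76, 0.909 and 0.965, in the same order. *Sln*, the gene of sarcolipin, an inhibitor of the calcium pump, had 1.70 and 1.62 TPM in LrpprcP27A replicates 2 and 3 and 8.65 TPM in replicate 1, the library of its group in which *Rrad* was also highest. Among the members, r with *Rrad* was 0.937 for *Gem*, 0.914 for *Cacng1* and 0.913 for *Cacnb1*, and 0.673, 0.21 and 0.371 with the group means taken out. For *Rem1*, *Cacna2d1* and *Cacna1s* it was 0.804, 0.442 and 0.393, and with the group means taken out it was negative, at -0.148, -0.564 and -0.885. The genes most like *Cacna1s*, among all tested, were *Zfp952* (0.983), *Chpt1* (0.982), *Pdlim5* (0.975), *Lpcat3* (0.974) and *Akap17b* (0.969), and for each the lowest library was LrpprcP27A replicate 1, the one in which *Cacna1s* was lowest.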

How the data were processed

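RNA-seq libraries of 6 TA muscles (TruSeq RNA v2, paired reads of 100 bp) were trimmed, aligned to GRCm39 with CLC Genomics Workbench 20.0.4 and summarised per gene by the authors, who deposited 1 table of TPM values. TPM keeps no read depth, so the depth is unknown and no counting error can be given. The number of genes above 0 was between 17774 and 19053 per library. All libraries have the same TPM sum, so a rise in abundant genes lowers the values of all others.

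Values were transformed as log2(TPM + 1), and 11611 of 41709 genes with a mean of at least 1 TPM were kept. LrpprcP27A was compared with LrpprcWT by limma 3.58.1 under R 4.3.3 (empirical Bayes with a mean trend, no block). No block was used because the study compared the groups unpaired in its RNA-seq figure, although it used paired tests for force. Benjamini-Hochberg adjustment was made over all kept genes, with a threshold of 0.05. The script was tested on simulated data, in which 188 of 200 genes with a log2 difference of size 2 and 16 unchanged genes were called. How many genes with smaller differences it would call was not tested. The simulated libraries held no shift common to most genes and no pairing of muscles, so false calls from these were not tested either. An exact permutation test of 3 against 3 libraries cannot give a two-sided p under 0.1 and was not used. The groups are contralateral muscles numbered 1 to 3 per the labels, and the deviations of same-numbered muscles from their group means correlated at 0.363, 0.528 and 0.356, so the numbers were taken to pair them. The main fit leaves this pairing out, and the replicate block takes it in. The alternatives were a pseudocount of 0.1, other filters, limma without the trend, Kruskal-Wallis tests, 3 other scalings, the replicate block (also with median-of-ratios scaling, added after seeing the data) and each library left out.

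The members and the gene lists were chosen with earlier results of these data known. Named were all members, up to 3 called genes of each list in either direction by the size of the log2 difference, or the most abundant tested gene where none was called, and the 5 genes most like *Rrad* and *Cacna1s*. *Cacng6*, *Cacna1g*, *Myh2*, *Ryr1*, *Stac3* and *Chrna1* were named after their values were seen. A gene that the rule named is not reported here. Positions and coding sequences came from GENCODE M39 on GRCm39 and were compared with Biopython 1.88.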

Additional observations from a re-analysis of the deposited data

How the results depend on the processing

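*Rrad*, *Gem*, *Cacnb1* and *Cacng1* stayed lower with LrpprcP27A under each of 13 alternatives that alter the values or the libraries, whereas *Rem1*, *Cacna1s* and *Cacna2d1* crossed 0 with another scaling. The log2 differences that moved by more than the spread between replicates, as deposited and with quantile normalization, were -3.06 and -2.70 for *Rrad*. For *Rem1*, -0.25 as deposited became -0.35 with a pseudocount of 0.1, 0.002 with median-of-ratios scaling, 0.14 with quantile normalization and -0.14 when rescaled without mitochondrial and ribosomal RNA genes. The last 3 settings gave 0.31, 0.195 and 0.12 for *Cacna1s*, -0.21, -0.305 and -0.396 for *Cacnb1*, and -0.265, -0.41 and -0.45 for *Cacng1*, and median-of-ratios scaling gave 0.052 for *Cacna2d1*. The replicate block leaves these differences as they are. *Cacna1h* reached 0.023, 0.168 and 0.023 with median-of-ratios scaling, quantile normalization and, with the block added, median-of-ratios scaling. The *Rrad* to *Cacna1s* ratio was between 8.14-fold and 13.8-fold higher with LrpprcWT when each library was left out.

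Of the listed genes, 40 fell and 5 rose. With no filter on low values 1 fell and 0 rose (64 and 10 at an unadjusted p under 0.05), and with Kruskal-Wallis tests 0 and 0 (58 and 12 unadjusted), because 3 against 3 libraries leave that test no adjusted call. The numbers were 19 and 11 with median-of-ratios scaling, 17 fell with quantile normalization and 19 fell with rescaling. With the replicate block 62 fell, and 22 rose with that block and median-of-ratios scaling together. Over the libraries left out, 1 to 62 fell and 0 to 9 rose.

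Of all tested genes, 2705 fell and 156 rose. The numbers were 42 and 9 with no filter, 0 and 0 with Kruskal-Wallis tests (5530 and 407 unadjusted), 520 and 493 under quantile normalization, 700 and 610 under median-of-ratios scaling, and 5619 and 312 with the replicate block. A minimum mean of 5 TPM left 1560 lower, rescaling left 662 lower, and 1561 were higher with both the block and median-of-ratios scaling. Over the libraries left out, 15 to 6913 fell and 3 to 304 rose. Of the 24 pathway genes past the threshold that the naming rule took, 24 kept their call with the block and 15 with median-of-ratios scaling, and 0 kept it without LrpprcWT replicate 3. Where no construction of an alternative shows it, the cause was not tested. The number of muscles limits the precision, and depth is unknown.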
